A study of Homo sapiens with 6 samples.

Results

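Axon guidance genes encode the ligands and receptors with which cells attract, repel and position each other: semaphorins with their plexin and neuropilin receptors, ephrins with Eph receptor tyrosine kinases, Slits with Robo receptors, and netrins with DCC, neogenin and UNC5 receptors. They were first described in growing axons, but the same proteins steer vessel growth, skeletal patterning and exchange between bone cells, and several are made by chondrocytes. These genes were chosen by symbol, which gave 72 of the 60623 genes in the count table. The cells were TC28a2, an immortalized human chondrocyte line, treated for 24 hours with 2 μM mocetinostat, an inhibitor of class I histone deacetylases, or with the vehicle DMSO, with 3 samples in each group. Per the study, the 3 samples of a group come from separate experiments, while the labels give only a replicate number. The comparison asks which transcripts of this cell line differ after histone deacetylase inhibition.

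RNA-Seq yielded 4873426 to 11031132 counts per sample with DMSO and 1619344 to 5089542 with mocetinostat, so that the treated samples were sequenced less deeply. The guidance genes held 0.202% to 0.220% of all counts with DMSO and 0.347% to 0.364% with mocetinostat. Levels are given as CPM, counts scaled to a common library size with TMM factors. Class sums, shares within a class and the order of guidance genes are given as RPKM, which divides CPM by the exon length in kilobases. The grouping of genes by level and the sums over marker genes use CPM, which is not adjusted for length. A level of 3 counts, taken as the floor, corresponds to 0.271 to 0.625 CPM in the DMSO samples and 0.595 to 1.86 CPM in the treated samples. In bulk RNA, fewer cells with a transcript and less RNA per cell cannot be told apart.

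Of the 72 genes, 55 had enough counts to be tested. Mocetinostat-treated cells had higher levels of 34 of them and lower levels of 2, the secreted semaphorin SEMA3D and the semaphorin receptor NRP1. To be called, a gene needed a log2 fold change beyond 1 in either direction and an adjusted p under 0.05. These are 61.8% and 3.64% of the guidance genes tested, beside 20.2% called higher and 8.18% called lower among all 13966 genes tested. With the adjusted p alone, 42 guidance genes (76.4%) were higher and 4 (7.27%) lower, beside 32.9% and 31.4% of all genes. The median log2 fold change was 1.65 over the guidance genes tested and 0.00 over all genes tested. The 3 samples of one group lay entirely above or below the 3 of the other for 48 guidance genes (87.3%), beside 66.5% of all genes tested. A gene that is nearly silent with DMSO passes the expression filter only if it is higher after treatment, so these counts describe the genes that passed and are not a count over all 72. Where each sample had to hold at least 10 counts, 27 of 44 guidance genes were called higher and 2 lower, beside 14.9% and 6.47% of all genes. With no filter, 38 of 72 were called higher and 3 lower, beside 7.90% and 5.23%.

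**Figure D1:**
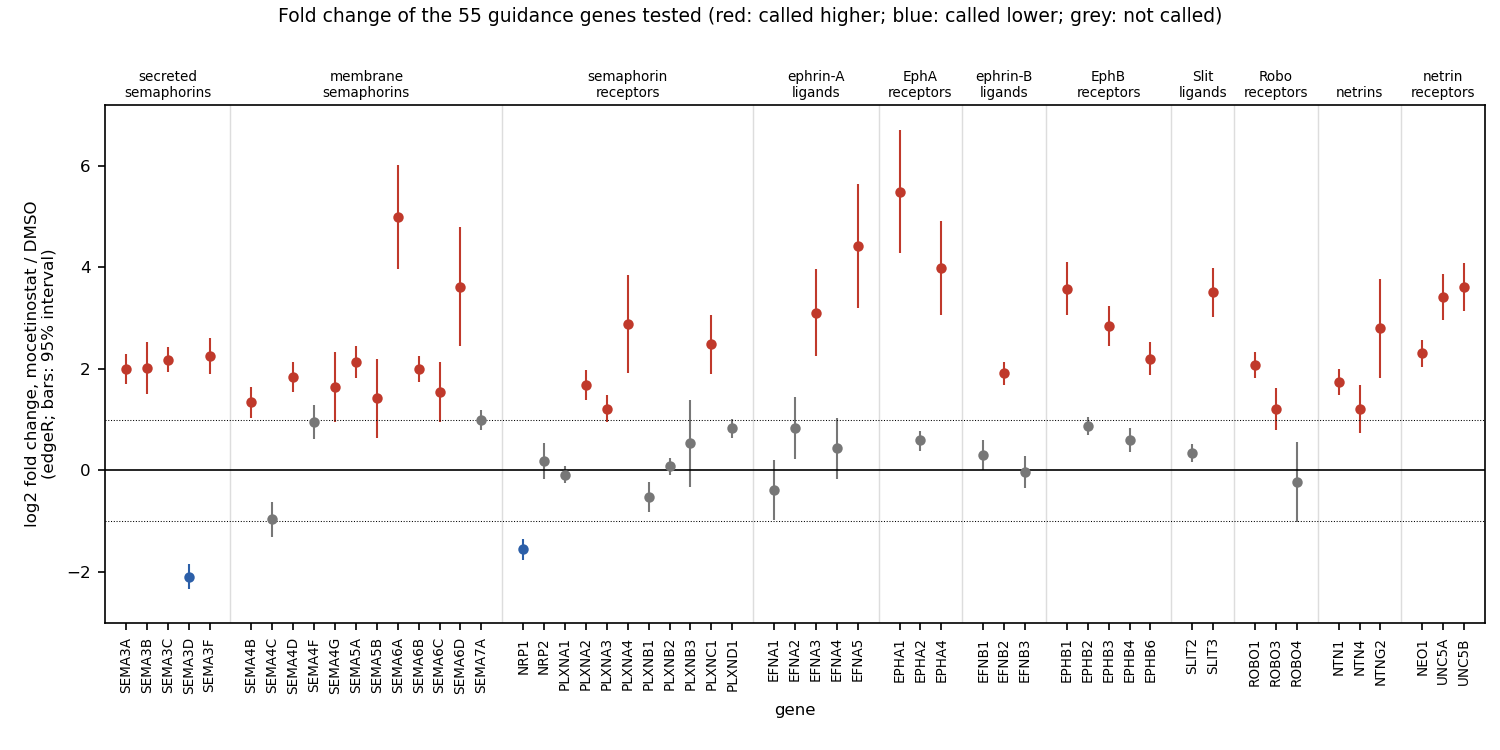
Log2 fold change, mocetinostat over DMSO, of the 55 guidance genes tested, by class; points are edgeR estimates from 3 samples per group and bars are 95% intervals, with dotted lines at a log2 fold change of 1 and -1. SEMA3D at -2.10 and NRP1 at -1.56 are the 2 genes called lower, while 34 genes are called higher; PLXNB1 lies below 0 here but at 0.01 when samples are scaled to GAPDH.

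Counts were also read by level, since genes with few counts were called higher more often. Among guidance genes with a mean below 10 CPM over the 6 samples, 11 of 16 were called higher, beside 40.1% of all genes at that level. Between 10 and 50 CPM the count was 16 of 22, beside 17.7%, and between 50 and 200 CPM it was 7 of 14, beside 8.02%. All 3 members above 200 CPM, PLXNA1, PLXNB2 and SLIT2, remained below the fold threshold, beside 6.19% of all genes called higher there. The levels of the guidance genes tested were not unusual, with a median of 33.8 CPM beside 28.3 CPM over all genes tested.

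**Figure D2:**
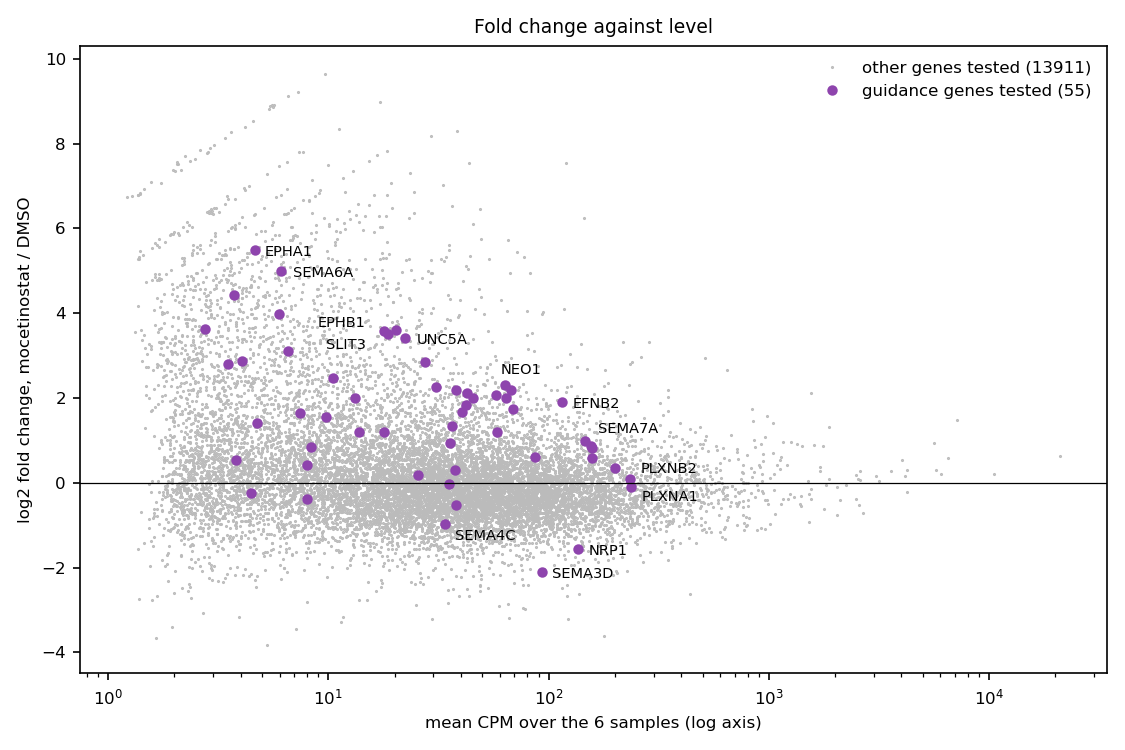
Log2 fold change against mean CPM over the 6 samples (log axis) for the 55 guidance genes tested (purple) and the other genes tested (grey). SEMA3D and NRP1 stand below the rest of the guidance genes at 50 to 200 CPM, where 7 of 14 guidance genes are called higher.

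Promoter sequence was examined because most of these genes moved in the same direction. The set of RefSeq transcription start windows used here covered 61 of the 72 genes, NRP1 not among them, and 22 of these have several starts. The 250 bases before each start (RefSeq, GRCh38.p14) were searched on both strands for GGGCGG, the GC box bound by Sp family factors, and for CACCC, the CACCC box bound by Krüppel-like factors. The searches were separate, so that a match to one can share bases with a match to the other. GGGCGG occurred in 33 of 48 windows (68.8%) of the guidance genes called higher, in 67 of 95 windows (70.5%) of all guidance genes with a window, and in 42.6% of all 35116 RefSeq windows. The share was therefore about the same in guidance genes as a whole as in those called higher. CACCC was found in 70.8%, 73.7% and 54.7% of these windows. The 6 windows below belong to SEMA3D, the lower gene with a window, and to 5 genes called higher that represent the Eph, ephrin, netrin receptor and Slit families; they were chosen after their values were seen, each has 1 listed start, and capitals mark GGGCGG or its complement CCGCCC.
SEMA3D: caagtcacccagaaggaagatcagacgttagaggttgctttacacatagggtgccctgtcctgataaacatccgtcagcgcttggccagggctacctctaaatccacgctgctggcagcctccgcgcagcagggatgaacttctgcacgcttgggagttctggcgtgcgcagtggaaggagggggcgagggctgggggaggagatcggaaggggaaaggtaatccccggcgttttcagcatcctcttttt
EPHB1: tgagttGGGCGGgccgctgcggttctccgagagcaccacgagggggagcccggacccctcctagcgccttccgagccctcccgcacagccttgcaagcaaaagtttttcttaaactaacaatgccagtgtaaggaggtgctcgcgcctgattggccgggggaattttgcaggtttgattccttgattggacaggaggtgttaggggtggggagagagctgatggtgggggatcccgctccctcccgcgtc
EPHB3: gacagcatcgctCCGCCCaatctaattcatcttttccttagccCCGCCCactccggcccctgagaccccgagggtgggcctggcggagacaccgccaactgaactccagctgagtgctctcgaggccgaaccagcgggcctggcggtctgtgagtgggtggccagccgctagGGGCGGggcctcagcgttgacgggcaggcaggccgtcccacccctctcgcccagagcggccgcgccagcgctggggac
EFNB2: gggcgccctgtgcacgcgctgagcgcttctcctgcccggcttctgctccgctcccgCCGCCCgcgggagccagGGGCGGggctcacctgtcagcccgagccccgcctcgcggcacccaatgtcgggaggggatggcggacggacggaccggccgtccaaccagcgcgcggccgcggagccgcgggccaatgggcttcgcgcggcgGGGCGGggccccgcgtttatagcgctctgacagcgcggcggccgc
UNC5A: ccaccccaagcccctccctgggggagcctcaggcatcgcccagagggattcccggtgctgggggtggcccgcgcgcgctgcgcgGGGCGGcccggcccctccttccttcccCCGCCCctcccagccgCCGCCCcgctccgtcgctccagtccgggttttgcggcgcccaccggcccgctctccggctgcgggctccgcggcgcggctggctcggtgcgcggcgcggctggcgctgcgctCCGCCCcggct
SLIT3: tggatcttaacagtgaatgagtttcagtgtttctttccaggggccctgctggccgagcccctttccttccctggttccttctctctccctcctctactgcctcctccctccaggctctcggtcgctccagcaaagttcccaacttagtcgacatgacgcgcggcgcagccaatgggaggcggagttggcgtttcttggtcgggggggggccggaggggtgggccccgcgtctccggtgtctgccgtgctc
They lie at chr7:85187057-85187306 (minus strand), chr3:134795010-134795259 (plus), chr3:184561535-184561784 (plus), chr13:106535663-106535912 (minus), chr5:176810309-176810558 (plus) and chr5:169301140-169301389 (minus), each immediately before the RefSeq start. The windows of SEMA3D and SLIT3 hold no GC box, that of EPHB1 holds 1, those of EPHB3 and EFNB2 hold 3 each and that of UNC5A holds 4. SEMA3D was called lower and SLIT3 higher. Only 1 gene called lower has a window, and a link between these sequences and the direction was not tested. A match describes the sequence and not a bound site.

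Secreted class 3 semaphorins, which signal through neuropilin and plexin complexes, changed in composition. SEMA3D was their most abundant member with DMSO, and 4 others were called higher after treatment, so that all 5 tested members passed both thresholds. SEMA3D (chr7:84995553-85187056, minus strand, GENCODE 44), a ligand of neuropilins, stood at 160.1, 149 and 142 CPM with DMSO and 30.5, 34.1 and 43.1 CPM with mocetinostat. Every treated sample lay below every DMSO sample, a 4.27-fold lower level (log2 fold change -2.10 ± 0.12 (SE), adjusted p = 4.60e-25). SEMA3C, which binds both neuropilins and plexin-D1, was present at 25.7, 21.9 and 25.3 CPM with DMSO and 107, 110.3 and 116 CPM with mocetinostat. It moved the opposite way by a similar factor, 4.53-fold higher with no overlap (log2 fold change 2.18 ± 0.13 (SE), adjusted p = 3.20e-25). For SEMA3A, the classical NRP1 ligand that collapses growth cones, the samples held 20.3, 19.2 and 14.6 CPM with DMSO and 77.9, 75.0 and 64.2 CPM with mocetinostat. The treated samples were all above the DMSO samples, and the level was 4.01-fold higher (log2 fold change 2.00 ± 0.15 (SE), adjusted p = 3.17e-20). SEMA3F, which signals mainly through NRP2, was measured at 11.3, 11.0 and 9.28 CPM with DMSO and 51.7, 60.1 and 41.4 CPM with mocetinostat. Its groups were separate as well, with a 4.78-fold higher level (log2 fold change 2.26 ± 0.18 (SE), adjusted p = 1.05e-18). SEMA3B was 4.03-fold higher (log2 fold change 2.01 ± 0.26 (SE), adjusted p = 2.53e-10).

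Per length, SEMA3D supplied 66.7% ± 0.684 (SD, n = 3) of the summed RPKM of the 7 secreted semaphorins with DMSO and 9.62% ± 2.06 with mocetinostat. SEMA3C supplied 13.1% to 16.3% with DMSO and 38.1% to 43.8% with mocetinostat. The share of SEMA3F went from 7.98% ± 0.410 to 23.2% ± 3.30 and that of SEMA3A from 7.08% ± 0.790 to 17.2% ± 1.36. The summed level of the class was 27.3 ± 1.76 RPKM with DMSO and 45.4 ± 1.94 RPKM with mocetinostat, so the lower SEMA3D level was more than made up by the other members in sum. Shares within a class do not depend on how samples are scaled to each other. The groups did not overlap for any of these shares, and 3 against 3 samples allow an exact two-sided permutation p of 0.1 at the lowest.

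Transmembrane and membrane-anchored semaphorins act at cell contacts, as ligands and in part as receptors, and 9 of the 12 tested were called higher and none lower. SEMA6B, a ligand of class A plexins, was found at 26.3, 22.9 and 27.4 CPM with DMSO and 113, 98.5 and 94.5 CPM with mocetinostat. All treated samples were higher (log2 fold change 2.00 ± 0.13 (SE), adjusted p = 5.85e-23). SEMA5A, which carries thrombospondin repeats and binds plexin-B3, was at 19.5, 10.4 and 16.7 CPM with DMSO and 74.7, 51.4 and 81.6 CPM with mocetinostat. Its lowest treated sample was well above its highest DMSO sample, and it was 4.39-fold higher (log2 fold change 2.13 ± 0.16 (SE), adjusted p = 1.60e-19). SEMA4D, a plexin-B1 ligand known from immune cells and from osteoclasts, was at 18.1, 21.7 and 15.6 CPM with DMSO and 64.8, 68.2 and 64.2 CPM with mocetinostat. Treated samples were tightly grouped and 3.58-fold higher (log2 fold change 1.84 ± 0.15 (SE), adjusted p = 3.72e-18). SEMA6A, another ligand of class A plexins, was close to the floor with DMSO and clearly detected after treatment, at 0.543, 0 and 0.295 CPM with DMSO and 11.1, 14.3 and 10.4 CPM with mocetinostat. Its fold, 31.8 (log2 fold change 4.99 ± 0.51 (SE), adjusted p = 8.76e-14), rests on 6, 0 and 2 counts in the DMSO samples and became a log2 fold change of 5.84 without DMSO replicate 1.

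Also called higher were SEMA4B by 2.53-fold (log2 fold change 1.34 ± 0.16 (SE), adjusted p = 1.29e-11), SEMA6C by 2.92-fold, SEMA4G by 3.14-fold, SEMA5B by 2.68-fold and SEMA6D by 12.3-fold, the last with 5, 1 and 3 counts in the DMSO samples and 24, 7 and 15 in the treated samples. For SEMA4G, 22.9% of the exon bases lie opposite exons of MRPL43, a mitochondrial ribosomal protein gene on the other strand, and the strand setting of the counting is not given in the sources used here. SEMA7A, a GPI-anchored semaphorin that binds plexin-C1 and integrins, had the highest RPKM of the class, with means of 26.1 with DMSO and 51.5 with mocetinostat. Its samples were at 85.8, 116 and 95.6 CPM with DMSO and 196, 198 and 193 CPM with mocetinostat. The groups did not overlap, and its log2 fold change of 0.99 ± 0.10 (adjusted p = 2.42e-14) fell just short of the fold threshold. SEMA7A passed it at 1.01 with RLE size factors or with library size alone and at 1.08 without DMSO replicate 2. It also passed at 1.52 with scaling to GAPDH and at 1.07 with at least 10 counts in every sample. With a block for the replicate number and after thinning to the smallest library it passed as well. SEMA4F missed the fold threshold as well, at 20.4, 34.6 and 19.2 CPM with DMSO and 45.4, 44.6 and 49.7 CPM with mocetinostat (log2 fold change 0.95 ± 0.17 (SE), adjusted p = 7.74e-07). SEMA4F passed it at 1.49 when samples were scaled to GAPDH, at 1.03 with at least 10 counts in every sample and at 1.20 without DMSO replicate 2.

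SEMA4C, a plexin-B2 ligand, was the exception in this class. Its samples held 38.1, 52.7 and 43.3 CPM with DMSO and 24.8, 30.4 and 13.7 CPM with mocetinostat, so that all treated samples were lower, although the third treated sample stood well below the others. The difference passed the adjusted p and not the fold threshold (log2 fold change -0.96 ± 0.17 (SE), adjusted p = 1.46e-06), and it passed both in DESeq2, at -1.01, and without a filter, at -1.21. The log2 fold change was -0.74 without mocetinostat replicate 3, and it passed both thresholds without DMSO replicate 1 or 3 or mocetinostat replicate 1 or 2, reaching -1.13.

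All 11 semaphorin receptors were tested, of which 4 were called higher, 1 lower, and 4 did not pass the adjusted p. NRP1, neuropilin-1 (chr10:33177492-33336262, minus strand), is the co-receptor for class 3 semaphorins and for VEGF. It stood at 204, 203 and 199.5 CPM with DMSO and 68.6, 81.2 and 59.3 CPM with mocetinostat. DMSO samples were nearly identical, all treated samples were lower, and the level was 2.94-fold lower (log2 fold change -1.56 ± 0.10 (SE), adjusted p = 3.65e-22). NRP2, the related co-receptor, stood at 22.8, 22.5 and 26.4 CPM with DMSO and 28.7, 31.6 and 21.1 CPM with mocetinostat with overlapping groups, and its log2 fold change was 0.18 (95% interval -0.17 to 0.53, adjusted p = 0.381). With scaling to GAPDH, NRP2 passed the adjusted p at a log2 fold change of 0.72. Per length, NRP1 fell from 17.6 ± 0.225 to 6.05 ± 0.955 RPKM, while NRP2 was at 1.72 ± 0.156 and 1.95 ± 0.389 RPKM, so NRP1 remained the more abundant neuropilin. A gene on the opposite strand overlaps 4.87% of the NRP1 exon bases.

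Among the plexins, which transmit the semaphorin signal into the cell, PLXNA2 was at 16.1, 22.3 and 20.6 CPM with DMSO and 66.0, 54.5 and 62.6 CPM with mocetinostat. It was 3.20-fold higher without overlap (log2 fold change 1.68 ± 0.15 (SE), adjusted p = 4.43e-16). PLXNC1, the SEMA7A receptor, was 5.58-fold higher (log2 fold change 2.48 ± 0.29 (SE), adjusted p = 1.30e-11) and PLXNA3 2.32-fold higher (log2 fold change 1.21 ± 0.13 (SE), adjusted p = 7.68e-13). PLXNA4 was 7.34-fold higher from 16, 1 and 6 counts with DMSO, and its log2 fold change of 2.88 became 3.53 without DMSO replicate 1. PLXND1, a receptor of SEMA3E and SEMA3C, was at 100.2, 108 and 131 CPM with DMSO and 202, 207 and 194 CPM with mocetinostat, higher without overlap but below the fold threshold (log2 fold change 0.83 ± 0.10 (SE), adjusted p = 6.47e-12), which it passed at 1.36 with scaling to GAPDH.

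The 2 plexins with the highest RPKM with DMSO were not among those called. PLXNB2, at 31.3 ± 3.29 RPKM with DMSO and 33.1 ± 2.03 RPKM with mocetinostat, held 203, 229.9 and 251 CPM with DMSO and 224, 253 and 246 CPM with mocetinostat. The groups overlapped, and the 95% interval of its log2 fold change ran from -0.10 to 0.25 (adjusted p = 0.455). With scaling to GAPDH, PLXNB2 passed the adjusted p at a log2 fold change of 0.60. PLXNA1 was at 205, 276 and 254 CPM with DMSO and 239, 226 and 223 CPM with mocetinostat, also with overlap and an interval of -0.26 to 0.09 (adjusted p = 0.396). Its log2 fold change passed the adjusted p in edgeR at -0.22 without DMSO replicate 1, at -0.34 without a filter and, in the other direction, at 0.44 with scaling to GAPDH. PLXNB1, the SEMA4D receptor, was at 45.2, 44.8 and 43.3 CPM with DMSO and 28.0, 30.4 and 35.2 CPM with mocetinostat, lower in every treated sample (log2 fold change -0.53 ± 0.15 (SE), adjusted p = 0.00133), but its log2 fold change was 0.01 with scaling to GAPDH, so its direction depends on the scaling. PLXNB3 was sparse, at 3.35, 3.54 and 3.09 CPM with DMSO and 5.95, 0.620 and 6.22 CPM with mocetinostat, and did not pass the adjusted p (log2 fold change 0.53 ± 0.42 (SE), adjusted p = 0.278). It passed both thresholds, at 1.07, with scaling to GAPDH, and 20.4% of its exon bases are shared with SRPK3 on the same strand. The summed level of the 11 semaphorin receptors was 85.5 to 99.6 RPKM with DMSO and 97.4 to 104 RPKM with mocetinostat, with overlapping groups. Within it the share of NRP1 went from 18.8% ± 1.76 to 6.03% ± 0.762 and that of PLXND1 from 12.5% ± 1.07 to 21.1% ± 0.275.

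**Figure D3:**
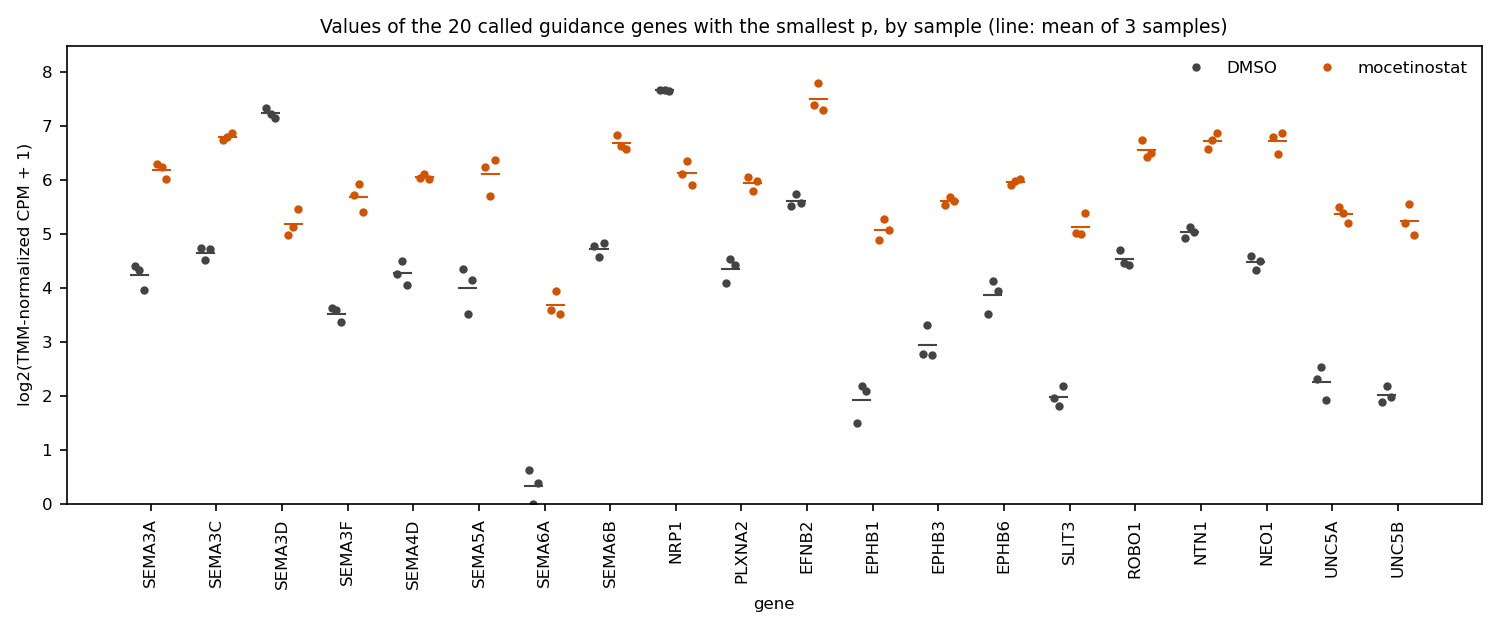
Log2(CPM + 1) in each sample for the 20 called guidance genes with the smallest p; grey points are DMSO and orange points mocetinostat, with lines at the mean of 3 samples. In all 20 genes the groups are separate, and SEMA3D and NRP1 are the 2 in which the treated samples are the lower ones.

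Ephrins and Eph receptors signal in both directions between touching cells; ephrin-A ligands are anchored by a lipid and bind mainly EphA receptors, whereas ephrin-B ligands span the membrane and bind mainly EphB receptors. EFNB2, a ligand of EPHB4 and other EphB receptors, was the ligand of this family with the clearest difference. It was measured at 44.9, 52.9 and 46.7 CPM with DMSO and 168, 223 and 156 CPM with mocetinostat. All treated samples were higher, and the level was 3.77-fold higher (log2 fold change 1.91 ± 0.11 (SE), adjusted p = 4.57e-25). An antisense gene overlaps 36.4% of the EFNB2 exon bases, so that reads from it could be counted with EFNB2 if strand was not used. EFNB1 stood between 28.0 and 38.8 CPM with DMSO and between 39.4 and 45.2 CPM with mocetinostat and did not pass the adjusted p (log2 fold change 0.30 ± 0.15 (SE), adjusted p = 0.0791), which it passed at 0.39 without DMSO replicate 3, at 0.38 with at least 10 counts in every sample and at 0.83 with scaling to GAPDH. EFNB3 overlapped between groups, at 33.5, 37.9 and 33.9 CPM with DMSO and 28.2, 38.4 and 39.4 CPM with mocetinostat, with a log2 fold change of -0.03 (95% interval -0.34 to 0.28) that turned to 0.51 with scaling to GAPDH.

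With DMSO the 3 ephrin-B ligands held similar shares of their summed RPKM, 33.2% ± 3.50 for EFNB1, 31.3% ± 1.53 for EFNB2 and 35.5% ± 2.03 for EFNB3 (SD, n = 3). EFNB1 did not differ from either of the others beyond its spread, whereas EFNB3 lay above EFNB2 in all 3 samples. With mocetinostat EFNB2 held 60.5% ± 3.70, EFNB1 21.1% ± 1.42 and EFNB3 18.4% ± 3.25. The sum was 30.8 ± 2.58 RPKM with DMSO and 60.0 ± 8.83 RPKM with mocetinostat.

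Of the 5 EphB receptors, 3 were called higher and the other 2 passed the adjusted p alone. EPHB1 was at 1.81, 3.54 and 3.24 CPM with DMSO and 28.5, 37.8 and 32.7 CPM with mocetinostat. The groups lay far apart, with the treated samples higher (log2 fold change 3.58 ± 0.26 (SE), adjusted p = 1.81e-20). EPHB3 stood at 5.88, 8.95 and 5.75 CPM with DMSO and 45.4, 50.8 and 47.7 CPM with mocetinostat. That was a 7.17-fold higher level without overlap (log2 fold change 2.84 ± 0.20 (SE), adjusted p = 1.79e-21). EPHB6, which lacks kinase activity, was at 10.4, 16.5 and 14.4 CPM with DMSO and 59.5, 62.0 and 63.8 CPM with mocetinostat, 4.61-fold higher in a tight group of treated samples (log2 fold change 2.20 ± 0.16 (SE), adjusted p = 7.93e-20). EPHB2 was at 107, 105 and 115 CPM with DMSO and 194, 213 and 196 CPM with mocetinostat and EPHB4, the EFNB2 receptor of veins, at 57.7, 72.1 and 77.2 CPM with DMSO and 106, 111 and 95.3 CPM with mocetinostat. Both were higher in every treated sample and below the fold threshold (log2 fold change 0.88 ± 0.09 (SE), adjusted p = 3.04e-13 for EPHB2, and log2 fold change 0.60 ± 0.12 (SE), adjusted p = 5.62e-06 for EPHB4), which both passed with scaling to GAPDH at 1.41 and 1.13. EPHB2 also passed the fold threshold after thinning to the smallest library.

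The summed EphB level was 21.1, 25.3 and 25.7 RPKM with DMSO and 58.1, 63.6 and 58.5 RPKM with mocetinostat. EPHB4 and EPHB2 held 44.5% ± 2.09 and 36.5% ± 3.76 of it with DMSO and 26.9% ± 1.56 and 26.7% ± 0.0451 with mocetinostat. The shares of EPHB3, EPHB6 and EPHB1 reached 17.6% ± 0.364, 19.3% ± 1.09 and 9.38% ± 0.899 after treatment, from 6.31% ± 1.45, 10.7% ± 1.49 and 2.01% ± 0.483. The 3 receptors called higher thus held a minor part of the class with DMSO and a much larger one with mocetinostat.

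EphA receptors were dominated by EPHA2, a receptor of ephrin-A ligands that is widespread in epithelia and tumors. EPHA2 was at 112, 132 and 136 CPM with DMSO and 185, 214 and 172 CPM with mocetinostat. All treated samples were above the DMSO samples, and the difference was below the fold threshold (log2 fold change 0.59 ± 0.10 (SE), adjusted p = 1.90e-07), which it passed at 1.11 with scaling to GAPDH. Per length EPHA2 held 99.3% ± 0.136 of the summed EphA level of 30.8 ± 3.07 RPKM with DMSO and 90.5% ± 0.737 of 50.8 ± 5.44 RPKM with mocetinostat. EPHA1 was 45.0-fold higher (log2 fold change 5.49 ± 0.61 (SE), adjusted p = 1.50e-12), on DMSO samples of 1, 0 and 3 counts and treated samples of 42, 13 and 26, and its log2 fold change became 6.67 without DMSO replicate 3. EPHA4 was 15.9-fold higher (log2 fold change 3.99 ± 0.47 (SE), adjusted p = 1.25e-11) on 11, 0 and 5 counts with DMSO, with a log2 fold change of 4.60 without DMSO replicate 1. Both were thus near the floor with DMSO, and the size of their folds is imprecise.

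Ephrin-A ligands stood at a summed 12.7 ± 0.618 RPKM with DMSO and 22.4 ± 3.71 RPKM with mocetinostat. EFNA3 was called higher by 8.60-fold (log2 fold change 3.10 ± 0.43 (SE), adjusted p = 2.06e-09), with a log2 fold change of 3.85 without DMSO replicate 3, and 43.9% of its exon bases are shared with the readthrough gene EFNA4-EFNA3. EFNA5, a ligand of EPHA4 and other EphA receptors, was called higher by 21.4-fold (log2 fold change 4.42 ± 0.61 (SE), adjusted p = 2.48e-09), but all of its DMSO counts, 0, 0 and 7, came from a single sample. Its log2 fold change was 8.16 without DMSO replicate 3 and 3.54 without DMSO replicate 1. EFNA4 had the highest mean RPKM of the class in each group, though EFNA1 was above it in DMSO replicate 3 and EFNA3 in mocetinostat replicate 3, and overlapped between groups, at 7.78, 6.87 and 5.31 CPM with DMSO and 7.73, 9.92 and 10.4 CPM with mocetinostat (log2 fold change 0.43 ± 0.30 (SE), adjusted p = 0.209), and 15% of its exon bases lie in the same readthrough gene. With scaling to GAPDH, EFNA4 passed the adjusted p at a log2 fold change of 0.97. EFNA1 was at 7.24, 11.0 and 9.43 CPM with DMSO and 7.14, 6.20 and 7.05 CPM with mocetinostat and did not pass the adjusted p (-0.39 ± 0.30, adjusted p = 0.255), with 0.15 after scaling to GAPDH. EFNA2 was at 5.61, 6.04 and 5.60 CPM with DMSO and 8.13, 13.6 and 10.8 CPM with mocetinostat, past the adjusted p only (log2 fold change 0.84 ± 0.31 (SE), adjusted p = 0.0128). EFNA2 was past both thresholds at 1.38 with scaling to GAPDH, at 1.06 without mocetinostat replicate 1 and after thinning to the smallest library. The difference of EFNA2 did not pass the adjusted p in DESeq2 (0.0740), without a filter (log2 fold change 0.59, adjusted p = 0.173 in edgeR) or without mocetinostat replicate 2 (0.66, adjusted p = 0.0683 in edgeR).

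Slits are secreted proteins that repel cells through Robo receptors. SLIT2 was the main Slit per length, at 16.0 ± 0.307 RPKM with DMSO and 20.2 ± 0.719 RPKM with mocetinostat. It held 179, 178 and 173 CPM with DMSO and 229, 214 and 228 CPM with mocetinostat, a small difference without overlap (log2 fold change 0.34 ± 0.09 (SE), adjusted p = 3.92e-04) that was 0.87 with scaling to GAPDH and did not pass without a filter on low counts (0.09, adjusted p = 0.517 in edgeR). SLIT3, which is made by osteoclasts among other cells, was at 2.89, 2.50 and 3.54 CPM with DMSO and 31.5, 31.0 and 41.0 CPM with mocetinostat. Its level was 11.4-fold higher (log2 fold change 3.51 ± 0.24 (SE), adjusted p = 2.04e-21), and its share of the Slit RPKM went from 1.29% ± 0.247 to 10.5% ± 1.29 while SLIT2 kept 88.0% ± 2.15.

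ROBO1, the Slit receptor with the highest mean RPKM, ahead of ROBO3 in all samples but DMSO replicate 3, was at 25.1, 21.0 and 20.5 CPM with DMSO and 106, 85.5 and 89.5 CPM with mocetinostat. It was 4.22-fold higher, with every treated sample far above the DMSO samples (log2 fold change 2.08 ± 0.13 (SE), adjusted p = 4.99e-23). ROBO3, which modulates Slit responses in commissural neurons, was 2.32-fold higher (log2 fold change 1.21 ± 0.21 (SE), adjusted p = 4.53e-07). ROBO4, the Robo of endothelium, overlapped between groups at 3.80, 4.16 and 6.93 CPM with DMSO and 4.56, 1.86 and 5.39 CPM with mocetinostat, with a log2 fold change of -0.23 ± 0.40 (adjusted p = 0.635) that was 0.31 with scaling to GAPDH, and 11.2% of its exon bases lie opposite another gene. Within the Robo receptors, ROBO1 held 46.5% ± 7.21 of the summed RPKM with DMSO and 66.7% ± 2.79 with mocetinostat.

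Netrins and their receptors were the classes in which every tested member, 3 of 3 in each, was called higher. Each class has 6 members, and the others had too few counts to be tested. A gene nearly silent with DMSO could be tested only if it was higher after treatment. NTN1, netrin-1, attracts axons through DCC and repels them through UNC5 receptors. It was at 29.5, 33.9 and 32.0 CPM with DMSO and 94.6, 107 and 116 CPM with mocetinostat. The groups were separate, and the level was 3.33-fold higher (log2 fold change 1.74 ± 0.13 (SE), adjusted p = 2.02e-20). NTN4, a laminin-related netrin of basement membranes, was 2.32-fold higher (log2 fold change 1.21 ± 0.24 (SE), adjusted p = 7.12e-06), and NTNG2, a membrane-anchored netrin of neurons, 6.96-fold higher (log2 fold change 2.80 ± 0.49 (SE), adjusted p = 8.84e-07). The fold of NTNG2 rests on 10, 3 and 7 counts in the DMSO samples and 36, 11 and 11 in the treated samples. The summed netrin level was 7.08 ± 0.132 RPKM with DMSO and 22.7 ± 0.845 RPKM with mocetinostat, with NTN1 at 70.0% ± 3.75 and 72.7% ± 6.58 of it.

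NEO1, neogenin, a receptor for netrins and for repulsive guidance molecules and a partner in BMP signaling, had the smallest p of all guidance genes. It stood at 23.0, 19.2 and 21.7 CPM with DMSO and 111, 88.6 and 117 CPM with mocetinostat. No sample overlapped, and the level was 4.95-fold higher (log2 fold change 2.31 ± 0.13 (SE), adjusted p = 1.40e-25). UNC5A, a repellent netrin receptor, was at 3.98, 4.79 and 2.80 CPM with DMSO and 44.4, 40.9 and 36.1 CPM with mocetinostat, 10.7-fold higher (log2 fold change 3.41 ± 0.22 (SE), adjusted p = 9.57e-23). UNC5B, its relative in vessels and many other tissues, was at 2.71, 3.54 and 2.95 CPM with DMSO and 35.7, 45.9 and 30.7 CPM with mocetinostat, 12.2-fold higher (log2 fold change 3.61 ± 0.24 (SE), adjusted p = 2.87e-22). Both UNC5 genes were far above their DMSO samples in every treated sample. The netrin receptors together stood at 4.18, 4.02 and 3.81 RPKM with DMSO and at 29.4, 27.4 and 27.4 RPKM with mocetinostat. NEO1 held 65.3% ± 5.93 of this with DMSO and 46.2% ± 6.37 with mocetinostat, UNC5A 22.2% ± 5.31 and 33.4% ± 2.48, and UNC5B 11.2% ± 1.69 and 19.5% ± 4.32. DCC, the attractive receptor, was not tested, with 0, 1 and 4 counts in the DMSO samples and 3, 0 and 2 in the treated samples.

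**Figure D4:**
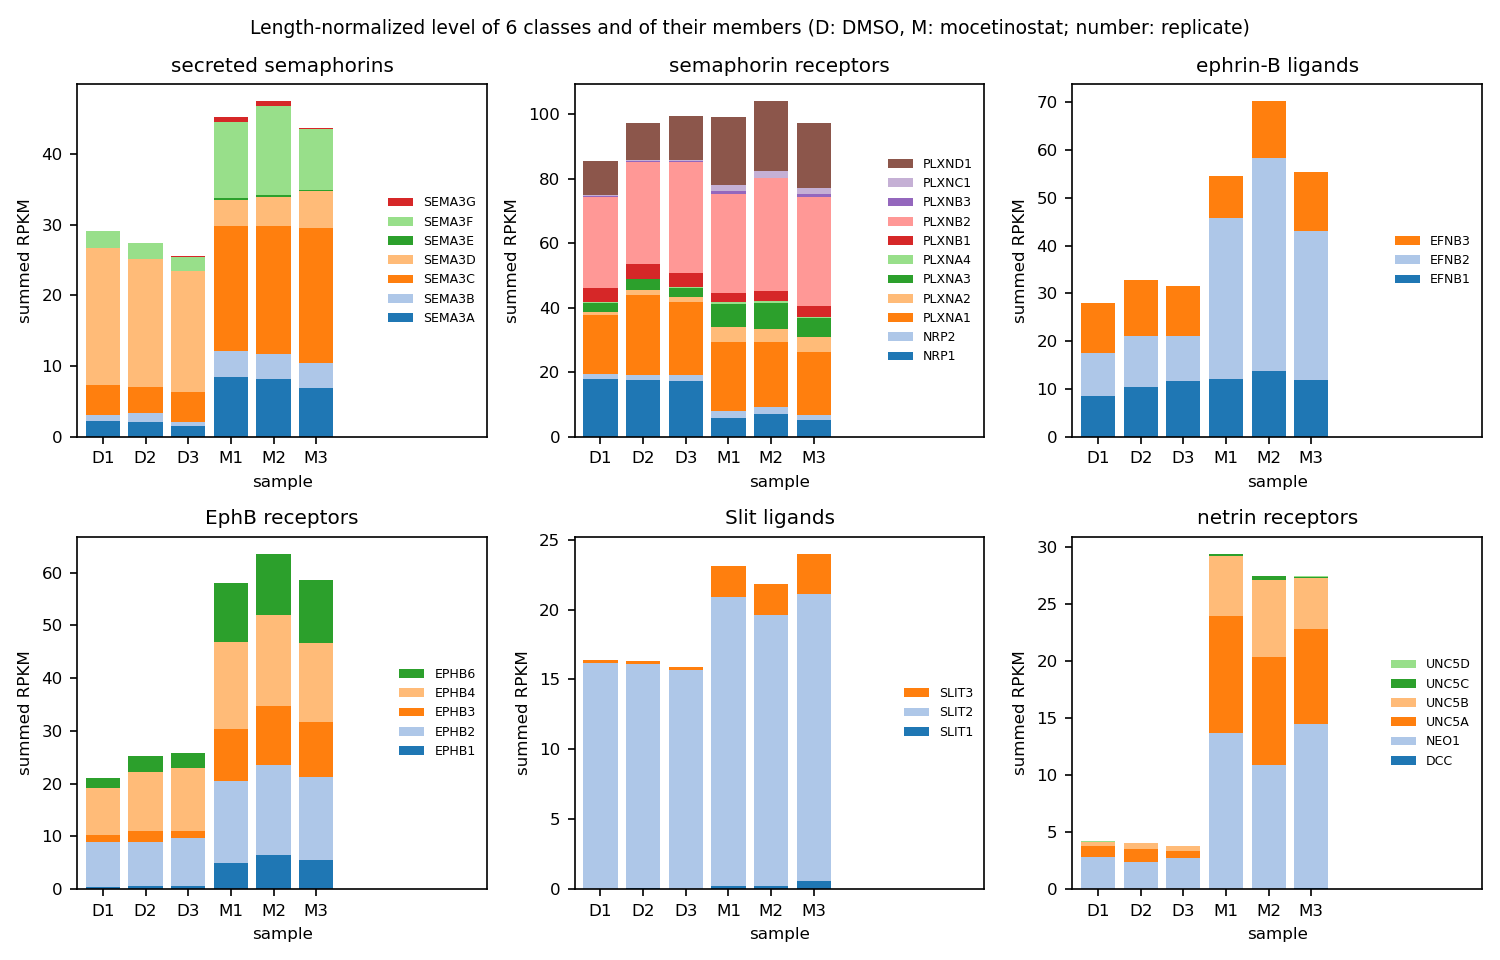
Summed RPKM of 6 classes in each sample (D, DMSO; M, mocetinostat; the number is the replicate), with the height of each colored block giving the level of 1 gene. SEMA3D takes up most of the secreted semaphorin bars with DMSO (66.7%) and a small part with mocetinostat (9.62%), the EFNB2 part of the ephrin-B bars goes from 31.3% to 60.5%, and the netrin receptor bars go from 3.81 to 4.18 RPKM with DMSO to 27.4 to 29.4 RPKM with mocetinostat.

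The order of levels per length was rearranged at its upper end. With DMSO, PLXNB2 (31.3 ± 3.29 RPKM), EPHA2 (30.5 ± 3.09) and SEMA7A (26.1) came first, followed by PLXNA1 (21.8 ± 3.23), SEMA3D (18.2 ± 1.11), NRP1 (17.6 ± 0.225) and SLIT2 (16.0 ± 0.307). Each of these overlapped the next in order within 1 SD of their means, except NRP1 and SLIT2. With mocetinostat, SEMA7A (51.5 ± 0.741 RPKM) and EPHA2 (46.0 ± 5.13) came first, then EFNB2 (36.5 ± 7.12) and PLXNB2 (33.1 ± 2.03), and then SEMA6B (21.7 ± 2.07), PLXND1 (21.1 ± 0.667), PLXNA1 (20.4 ± 0.764) and SLIT2 (20.2 ± 0.719). Here each overlapped the next in the same way, except PLXNB2 and SEMA6B. SEMA3D and NRP1 were then at 4.35 ± 0.785 and 6.05 ± 0.955 RPKM.

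The 17 genes that were not tested had few counts in every sample. They comprise 6 EphA receptors, SEMA3E, SEMA3G, SEMA4A, SLIT1, ROBO2, NTN3, NTN5, NTNG1, DCC, UNC5C and UNC5D. The counts of EPHA5 were 4, 0 and 0 in the DMSO samples and 22, 3 and 6 in the treated samples, those of EPHA10 1, 3 and 0 and 20, 3 and 4, EPHA8 1, 0 and 0 and 13, 4 and 3, and EPHA7 1, 2 and 1 and 13, 0 and 2. EPHA3 held 1, 3 and 0 and 7, 5 and 2, and EPHA6 1, 3 and 0 and 5, 2 and 1. These EphA genes are best known from the nervous system, and none reached 5 CPM in any sample. Among the ligands, SEMA3G held 1, 0 and 3 and 18, 6 and 1 counts, SEMA3E 4, 1 and 1 and 12, 4 and 3, and SLIT1 2, 2 and 2 and 10, 3 and 13. UNC5C held 2, 1 and 1 and 12, 6 and 2, ROBO2 10, 2 and 0 and 15, 0 and 5, and SEMA4A 4, 0 and 0 and 4, 1 and 0. The netrins NTN5, NTNG1 and NTN3 held 0, 0 and 1 and 7, 0 and 0, 3, 0 and 0 and 7, 0 and 3, and 2, 0 and 0 and 1, 1 and 3 counts. For EPHA8, with 1 count in all DMSO samples together, the depth-adjusted ratio was 49.9 with a counting interval of 7.98 to 2069, so that only its direction is measured with any precision. UNC5D had at most 2 counts in any sample.

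Genes that act with or downstream of these receptors were taken from 3 lists. Of 36 semaphorin and plexin partners and effectors, 31 were tested, of which 9 were called higher and 1 lower, beside 20.2% called higher and 8.18% called lower among all genes, with a median log2 fold change of 0.42 beside 0.00 over all genes. KDR, the VEGF receptor that partners with NRP1, was near 0 with DMSO and 22.8 to 27.6 CPM with mocetinostat (log2 fold change 6.41 ± 0.41 (SE), adjusted p = 3.79e-23). KDR held 1, 3 and 2 counts in the DMSO samples, so it could be tested only by being higher after treatment, and the size of its fold is imprecise. RND3, a regulator of the actin cytoskeleton, was 3.11-fold higher (1.64 ± 0.09 on the log2 scale), and the collapsin response mediators DPYSL5 and DPYSL2, which relay semaphorin signals to microtubules, were 10.1-fold and 2.30-fold higher. FARP1, a guanine nucleotide exchange factor that binds class A plexins, was 2.05-fold higher. ERBB2, a receptor tyrosine kinase that couples to plexin-B1, was 2.65-fold lower (log2 fold change -1.41 ± 0.14 (SE), adjusted p = 2.14e-14).

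Of 33 ephrin and Eph partners and effectors, 28 were tested, 6 were called higher, a share close to the 20.2% of all genes, and none lower beside 8.18%, with a median of 0.18, while 8 passed the adjusted p alone in the lower direction. Called higher with the smallest p were PTPN13, a phosphatase that binds ephrin-B ligands (110.5-fold, log2 fold change 6.79 ± 0.37 (SE), adjusted p = 8.04e-27), TIAM1, a Rac exchange factor (3.54-fold), NGEF, the ephexin of EphA signaling (12.3-fold), VAV3, a guanine nucleotide exchange factor (5.93-fold), and GRIP2, an ephrin-B adaptor (11.8-fold). PTPN13 held 2, 1 and 3 counts in the DMSO samples and GRIP2 held 7, 3 and 7, so the size of these folds is imprecise. Of 33 Slit, Robo and netrin partners and effectors, 28 were tested, 14 were called higher and none lower, beside the same 20.2% and 8.18%, with 6 past the adjusted p alone in the lower direction and a median of 0.94. ABLIM1, an actin-binding protein, was 4.57-fold higher (log2 fold change 2.19 ± 0.12 (SE), adjusted p = 7.10e-26), and DRAXIN, a secreted netrin and DCC ligand, 6.65-fold higher. TRIM9, a ubiquitin ligase that binds DCC, was 7.95-fold higher, and MYO10, an unconventional myosin of filopodia, 2.17-fold higher.

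Marker genes of several cell types were also called higher, beside 20.2% of all genes tested and 40.1% of the genes with a mean below 10 CPM. Of 13 neuron markers 10 were tested and all 10 were called higher, with a summed level of 30.4 to 32.6 CPM in the DMSO samples and 318 to 359.6 CPM in the treated samples. Markers nearly silent with DMSO, among them MAP2, GAP43, NEFM, NEFL and SYT1, could pass the expression filter only by being higher after treatment. The counts of markers called therefore describe those that passed. STMN2 was at 0 in all DMSO samples and at 1.66 CPM or less in the treated samples. Of 15 chondrocyte markers 9 were tested and 6 called higher, from a summed 122 to 146 CPM to 266 to 309 CPM. SOX9, the chondrocyte master regulator, was at 95.5 to 122 CPM with DMSO, COL2A1 at 1.46 to 2.80 CPM, and CNMD at 0 in all samples, so that the line showed SOX9 but little of the cartilage matrix program with DMSO. Of 8 endothelium markers 6 were tested and 3 called higher (33.8 to 34.6 CPM against 75.3 to 89.2 CPM), with CDH5 at a log2 fold change of 0.12 ± 0.46 (adjusted p = 0.834). Of 7 epithelium markers 4 were tested and 3 called higher, from a summed 901 to 1083 CPM to 1940.3 to 1998 CPM, of which KRT8 and KRT18 made up most. The part of other cell types in the differences of the guidance genes was not tested.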

How the data were processed

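RNA-Seq of TC28a2 cells was analyzed in 3 mocetinostat-treated and 3 DMSO-treated samples. The authors deposited raw counts per gene, not normalized, for all samples. Per the study's methods and the submitters' processing notes, single reads were trimmed, depleted of ribosomal RNA reads, aligned to GRCh38 with STAR 2.6.1d and counted with featureCounts 1.6.4. The strand setting of the counting is not given in the sources used here, so that genes with an antisense or overlapping gene are uncertain to that extent.

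From these counts, edgeR 4.0.16 (limma 3.58.1, R 4.3.3) computed TMM factors and kept 13966 of 60623 genes with filterByExpr at a minimum count of 10. Treatment was tested with the quasi-likelihood test over all 6 samples, with Benjamini-Hochberg adjustment over every gene tested. Calls needed a log2 fold change beyond 1 in either direction and an adjusted p under 0.05. SE is that of the log2 fold change, and the common biological coefficient of variation was 9.30%. RPKM was computed with exon lengths of GENCODE 44, to which 99.5% of the genes were matched. Python 3.11.15, pandas 2.3.3 and matplotlib 3.10.9 made summaries and figures. The fit was tested on simulated data.

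Guidance genes were taken by symbol. Values per sample are given for the 20 called genes with the smallest p, for the gene with the highest RPKM in each class, and for genes whose call or direction changed with another scaling. The other called genes are given by fold change. Untested genes are given by counts where a sample holds at least 3, and listed partners by up to 5 of the smallest p per direction. Genes, classes and lists were chosen with earlier results of these data known. Within groups, pairs of samples differed by more than sampling noise (chi-square per degree of freedom 1.93 to 7.95), so none was treated as a library deposited more than once. Totals were 1619344 to 11031132 counts, and floors and the interval of a ratio of counts cover counting error only, while intervals of fitted log2 fold changes include the spread between samples. Alternatives were DESeq2 1.42.0, RLE size factors, library size alone, scaling to GAPDH, no filter, glmTreat, a minimum of 10 counts in each of the samples, a block for the replicate number, thinning to 1619344 counts, and leaving out single samples.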

Additional observations from a re-analysis of the deposited data

How the results depend on the processing

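Over the alternatives, 27 to 43 guidance genes were called higher (34 as reported) and 2 or 3 lower, and SEMA3D and NRP1 were called lower in every one. The count of 27 came from a minimum of 10 counts in each sample and that of 43 without DMSO replicate 2. Scaling to GAPDH moved the median of all genes to 0.53 and the share of higher calls among all calls from 71.2% to 94.0% (4425 higher, 284 lower, beside 2827 and 1142), with 42 guidance genes called higher and 2 lower. Without a filter that share was 60.2% (3201 higher, 2120 lower, median 0.25), with glmTreat 81.6% (2069 and 465), and at least 10 counts in every sample gave 1620 and 704. NTN4, PLXNA3 and ROBO3 lost their call without a filter and with glmTreat, as did SEMA5B with glmTreat. The direction turned for EFNA1 (0.15), EFNB3 (0.51), PLXNA1 (0.44), PLXNB1 (0.01) and ROBO4 (0.31) with scaling to GAPDH, for NRP2 (-0.07) and PLXNB2 (-0.18) without a filter, and for EFNB3 with at least 10 counts in every sample (0.05) and after thinning (0.17). With single samples left out, it turned for EFNB3 without mocetinostat replicate 1 (range -0.15 to 0.15), for PLXNB2 without DMSO replicate 1 (-0.03 to 0.13) and for ROBO4 without DMSO replicate 3 (-0.44 to 0.06). None of these was called as reported, and the cause was not tested. For the lists of partners, runs chosen after seeing the data gave 15 semaphorin partners higher and 0 lower with scaling to GAPDH, 3 Eph partners and 1 Slit, Robo or netrin partner lower without a filter, 3 Eph partners and 7 Slit, Robo or netrin partners higher with at least 10 counts in every sample, and 8 of the latter after thinning. Left-out samples gave 0 to 1 lower Slit, Robo or netrin partners. Same-numbered samples did not deviate together (correlations 0.01, 0.02 and -0.02), and the replicate number as a block gave 35 guidance genes higher and 2 lower. The treated samples had fewer counts (1619344 to 5089542, beside 4873426 to 11031132 with DMSO).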

Other observations

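A ligand of neogenin other than the netrins was measured beside NEO1. RGMA, repulsive guidance molecule A, stood at 0.452, 0.208 and 0.295 CPM with DMSO and at 11.9, 21.1 and 14.9 CPM with mocetinostat, 41.1-fold higher (log2 fold change 5.36 ± 0.47 (SE), adjusted p = 1.17e-16 in edgeR). RGMA held 5, 1 and 2 counts in the DMSO samples, so it could be tested only by being higher after treatment, and the size of its fold is imprecise. RGMB, its relative, was at 55.0, 58.1 and 59.7 CPM with DMSO and 55.3, 58.9 and 49.3 CPM with mocetinostat, with overlapping groups (log2 fold change -0.08 ± 0.13, adjusted p = 0.590). The FLRT proteins, which bind UNC5 and Robo receptors, were all called higher. FLRT1, FLRT2 and FLRT3 were higher by 7.71-fold, 6.61-fold and 12.4-fold, each from below 2 CPM in every DMSO sample. Their DMSO counts were 9, 1 and 4 for FLRT1, 15, 3 and 3 for FLRT2, and 2, 3 and 0 for FLRT3. At that level a gene could be tested only if it was higher after treatment, so their shared direction was largely set by the filter. These genes were chosen after their values were seen.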
